A study of Mus musculus with 16 samples.

Results

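The epididymis of fetal male mice at gestational day 16 (gd16) was compared with that at gestational day 14 (gd14) on Affymetrix expression arrays. The 3 arrays whose titles give gd16 were set against the 3 whose titles give gd14, which makes 6 of the 16 arrays of the series. Both groups were wild-type males of the outbred stock CD-1, with no treatment in the labels. The labels place gd16 at Theiler stage 24 and gd14 at Theiler stage 22. Each sample held both epididymides of 1 animal, each animal had its own dam, and no samples were pooled. The organ was excised whole, so duct epithelium, mesenchyme, vessels and the outer covering were measured together, and RNA was amplified in 2 rounds. The other arrays hold gd12, gd18 and postnatal day 2 (pnd2) epididymides, 3 each, and 1 pool of whole newborns.

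The epididymis is the duct in which sperm mature after leaving the testis, and it forms from the Wolffian duct under the action of testicular androgen. In the fetus its mesenchyme lays down a matrix of collagen, elastin and proteoglycans around the duct, some mesenchymal cells become the smooth muscle of the duct wall, and the duct lengthens and coils. Red cells made in the yolk sac, which carry embryonic globins, are replaced in the circulation over the same period by red cells from the fetal liver.

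Signals were taken as log2(signal + 16) and fitted with limma on the 12 fetal arrays (gd12, gd14, gd16 and gd18), which share 1 estimate of the spread. A gene was tested if its probe set lay at or above the median of its own array on at least 3 of the 12 arrays, and it was called changed at a Benjamini-Hochberg adjusted p under 0.05. Array medians were 121 to 133 at gd16 and 123 to 126 at gd14, and each array's mean without its extreme 2% on either side was 500. Of 10 Wolffian duct and Hox genes taken as tissue markers, 8 had a probe set. Of these, 6 (Lhx1, Emx2, Hoxa9, Hoxa10, Hoxd10, Hoxc9) lay at or above the array median on all 6 arrays. Pax8 and Gata3 did so on 5 of the 6 arrays. The leading principal component of the 6 arrays, with 35.3% of their variance, put gd16 replicates 7, 8 and 9 at 24.2, 21.8 and 13.6, against -18.4, -21.9 and -19.3 for gd14 replicates 10, 11 and 12. Steroidogenic genes stood out on gd16 replicate 9 and, less far, on gd14 replicate 10. Counts are therefore also given without both of these arrays.

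Of 11905 genes tested, 129 were called (1.08%), of which 79 were higher at gd16 (0.664%) and 50 were lower (0.42%). At least 2-fold changes were seen for 49 of the higher and 21 of the lower genes. The arrays of the stages did not overlap for any of the 129 called genes, and they did not overlap for 2566 of all genes tested (21.6%). The median log2 change over all genes was -0.03, with quartiles of -0.19 and 0.15. Fitted on the 6 arrays alone, 292 of 11045 genes were called (2.64%), 177 higher (1.6%) and 115 lower (1.04%), and 119 of them were among the 129. Without gd16 replicate 9 and gd14 replicate 10, 15 genes were called, 11 higher and 4 lower. Of these, 13 were among the 129, namely Irs4, Aspn, Fbxo32, Mgp, Maob, Eln, Gabrb1, Lox, Smoc2, Htatsf1 and Tmem45a, which rose, and Hmga2 and Dppa5a, which fell. With 3 animals against 3, an exact permutation test of a single gene cannot go below p = 0.1, so the calls rest on the moderated fit.

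**Figure D1:**
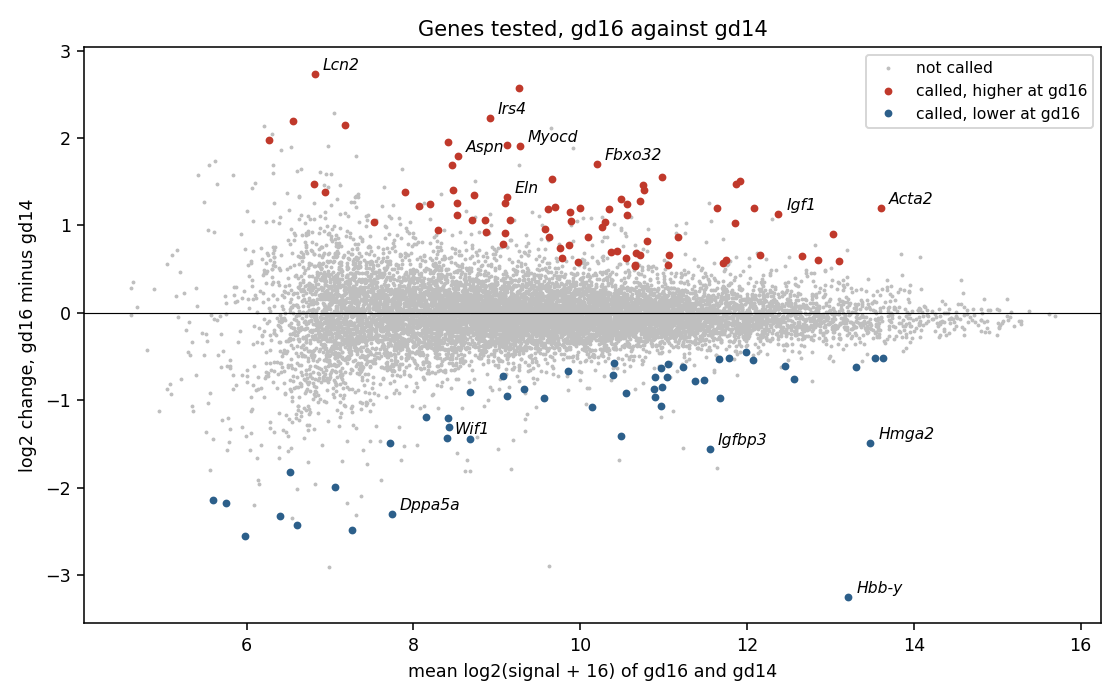
Log2 change of gd16 minus gd14 (vertical axis) against the mean log2(signal + 16) of both stages (horizontal axis), 1 point per gene tested. Called genes are red where higher at gd16 (79) and blue where lower (50), and Lcn2 is the highest and Hbb-y the lowest of them.

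The called rises included genes of the extracellular matrix. Aspn (asporin, a small leucine-rich proteoglycan that binds collagen) had signals of 606, 795 and 635 at gd16, against 199, 179 and 169 at gd14. The lowest gd16 array lay far above the highest gd14 array, and the fitted rise was 3.48-fold (1.80 ± 0.18 as log2 change and SE, with 3 arrays in each stage, adjusted p = 0.00043). A second probe set of Aspn gave a log2 change of 2.15. Eln (elastin, the core of elastic fibres) had 890, 1046 and 697 at gd16, against 331, 279 and 407 at gd14, a 2.51-fold rise (1.33 ± 0.17, adjusted p = 0.00264). Lox (lysyl oxidase, which cross-links elastin and collagen) had 5775, 4572 and 4218 at gd16, against 2317, 1884 and 2066 at gd14, a 2.30-fold rise (1.2 ± 0.15, adjusted p = 0.00221). For both genes the stages did not overlap.

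Among the adhesive and basement membrane proteins, Smoc2 (a calcium-binding matricellular protein) had signals of 7059, 6321 and 6318 at gd16, against 2973, 2575 and 3046 at gd14. Its rise was 2.29-fold (1.19 ± 0.13, adjusted p = 0.000601), and the 3 arrays within each stage lay close together. Lama2 (the laminin alpha 2 chain, found around muscle cells) had 2238, 2112 and 2293 at gd16, against 1019, 1023 and 977 at gd14, a 2.18-fold rise (1.12 ± 0.17, adjusted p = 0.007). Tgfbi, an adhesive protein induced by TGF-beta, went the other way, with 7861, 7302 and 9422 at gd16, against 12533, 14538 and 10732 at gd14 (1.53-fold lower, adjusted p = 0.0261). Genes of matrix adhesion thus did not all move one way.

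Mgp (matrix Gla protein, which restrains calcification) had signals of 3220, 3183 and 2260 at gd16, against 1150, 883 and 1065 at gd14, a 2.75-fold rise (adjusted p = 0.00601). Itih5 (a heavy chain of the inter-alpha-trypsin inhibitor family, which binds hyaluronan) had 7150, 6329 and 6044 at gd16, against 2445, 2365 and 2035 at gd14, a 2.84-fold rise (adjusted p = 0.00894). Its other probe sets gave log2 changes of 1.49 and 1.63. Dpt (dermatopontin, a matrix protein that binds decorin) was 3.88-fold higher at gd16 (adjusted p = 0.0252).

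Counted by list, 1 of 10 measured small leucine-rich proteoglycan genes rose (Aspn), 2 of 17 elastic fibre and microfibril genes (Eln and Lox) and 1 of 19 interstitial collagen genes (Col5a1, 1.57-fold). Of all genes tested 0.664% were called higher. None of these 3 lists held a called fall. The medians of the log2 changes were 0.24, 0.26 and 0.38, against -0.03 over all genes tested. In the elastic fibre list 16 of 17 members lay above 0, and in the collagen list 16 of 19, where 44.7% of all genes tested lay above 0. Without gd16 replicate 9 and gd14 replicate 10 the elastic fibre median was 0.46 and the collagen median 0.50. The fibril-forming collagen Col3a1 had a log2 change of 0.02, Col1a1 of 0.24 and Col1a2 of 0.15, none of them called, and the 3 measured chains of collagen VI (Col6a1, Col6a2 and Col6a3) lay at 0.68, 0.63 and 0.72, also not called. The basement membrane list had 1 called rise of 21 (Lama2) and a median of 0.31. The matricellular list had 1 called rise (Smoc2) and 1 called fall (Tgfbi) of 20, with a median of 0.17.

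Among 18 genes of matrix proteases and their inhibitors, 2 rose and none fell, with a median of 0.26. The share called higher over all genes tested was 0.664%, and their median was -0.03. Adamts15, a protease that cuts the proteoglycans aggrecan and versican, had signals of 701, 531 and 538 at gd16, against 326, 260 and 235 at gd14 (2.09-fold, adjusted p = 0.0145). Htra3, a secreted serine protease, was 2.40-fold higher (adjusted p = 0.0271). A second probe set of Htra3 had a log2 change of -0.15, and with the mean of its probe sets the gene was not called.

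**Figure D2:**
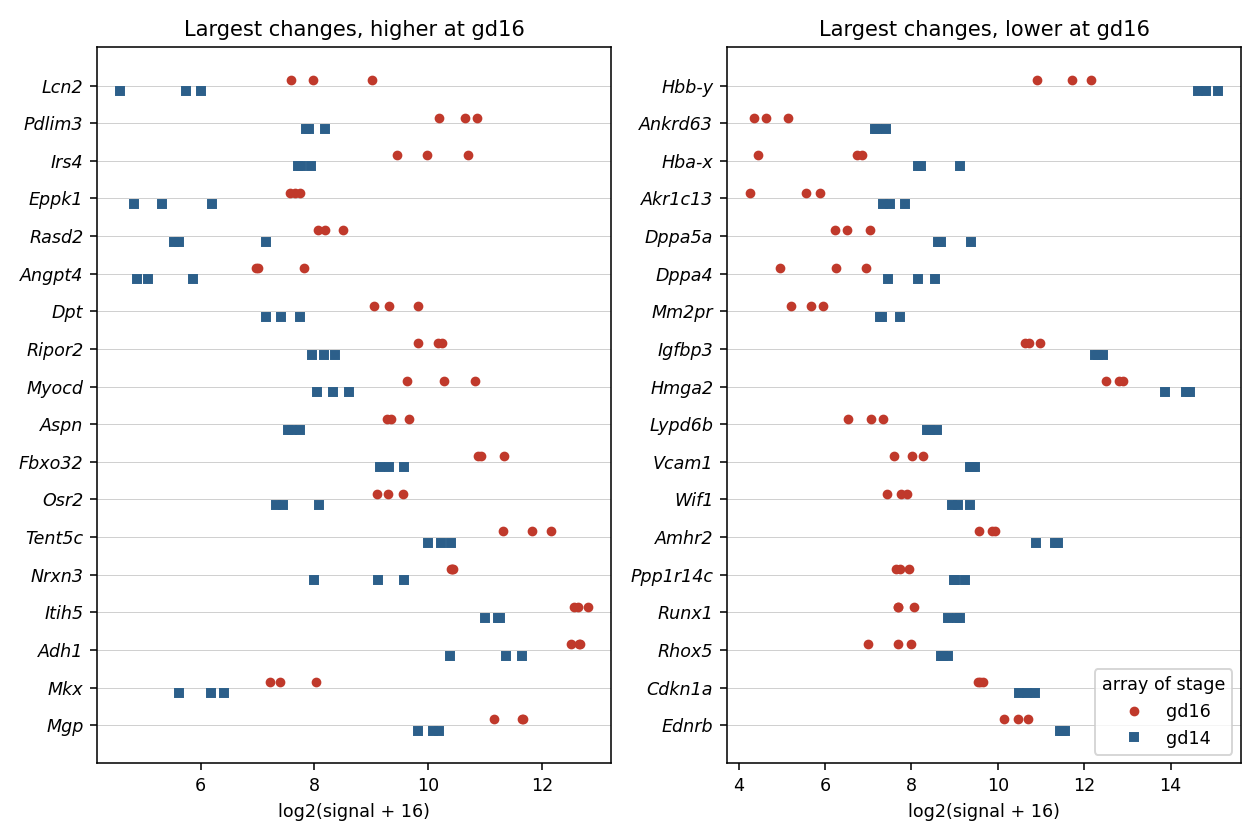
Log2(signal + 16) on each array (horizontal axis) for the 18 genes with the largest called rises (left) and the 18 with the largest called falls (right), with gd16 arrays as red circles above gd14 arrays as blue squares. In each row the 3 gd16 arrays lie apart from the 3 gd14 arrays.

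Contractile genes of smooth muscle were also among the called rises. Myocd (myocardin, the coactivator of serum response factor that switches on contractile genes) had signals of 770, 1785 and 1220 at gd16, against 303, 373 and 248 at gd14. All gd16 arrays lay above all gd14 arrays, with replicate 8 the highest, and the rise was 3.77-fold (1.91 ± 0.32, adjusted p = 0.0145). Acta2 (smooth muscle alpha actin) had 17872, 20908 and 18190 at gd16, against 9862, 6409 and 8849 at gd14, a 2.30-fold rise (adjusted p = 0.0208). Myl9 (the regulatory light chain of smooth muscle myosin) had 1889, 2174 and 1809 at gd16, against 1043, 646 and 908 at gd14, a 2.27-fold rise (adjusted p = 0.0159). Tgfb1i1 (Hic-5, a focal adhesion adaptor) was 1.82-fold higher (adjusted p = 0.0388). Itga8, the integrin alpha 8 chain, was 1.69-fold lower, with 4821, 4206 and 4923 at gd16, against 7805, 8265 and 7494 at gd14 (adjusted p = 0.0161).

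In all, 4 of 23 measured smooth muscle genes rose and 1 fell, and the median log2 change was 0.46. Over all genes tested 0.664% were called higher and 0.42% lower, and the median was -0.03. The arrays did not overlap, with gd16 higher, for 13 of the 23, where 9.28% of all genes tested were separated in that direction. Without gd16 replicate 9 and gd14 replicate 10 the median was 0.51. Members that were not called include Myh11, the smooth muscle myosin heavy chain, with signals of 109, 431 and 244 at gd16, against 9.25, 81.2 and 95.7 at gd14 (adjusted p = 0.116), and the intermediate filament gene Des, with 375, 347 and 193 at gd16, against 118, 106 and 174 at gd14 (adjusted p = 0.201). Cald1 and Pdlim7 had log2 changes of -0.05 and 0.03. Outside the list, Pdlim3 (a protein that binds alpha-actinin in muscle) had 1146, 1829 and 1588 at gd16, against 215, 224 and 275 at gd14, a 5.97-fold rise (2.58 ± 0.50, adjusted p = 0.0252). Fbxo32 (atrogin-1, a ubiquitin ligase subunit studied in striated muscle) had 1865, 2566 and 1935 at gd16, against 551, 751 and 619 at gd14, a 3.25-fold rise (1.70 ± 0.16, adjusted p = 0.00035, the lowest of all genes). Its other probe sets gave 1.15 and 1.06, and with 64 added in place of 16, which changed the probe set taken, the adjusted p was 0.0739.

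Serum response factor binds the CArG box, and the promoters of the called genes were searched for it on both strands, from 250 bases before to 50 bases after each annotated start (RefSeq, GRCm38.p6). A box was found in 535 of 32851 promoters in the table (1.63%), in 156 of 12293 promoters of the genes tested (1.27%) and in 4 of 75 promoters of the genes called higher, which belong to Filip1l, Lama2, Myl9 and Ripor2. It was found in 0 of 50 promoters of the genes called lower, and in 2 of 22 promoters of the smooth muscle list (Myl9 and Srf). A match is a description of the letters and shows no binding. The promoters of Myl9 (chr2:156775214-156775513, plus strand) and Filip1l (chr16:57548992-57549291, plus strand) are shown because both genes rose, with the box in capitals at -161 and at -62 from the start.
Myl9: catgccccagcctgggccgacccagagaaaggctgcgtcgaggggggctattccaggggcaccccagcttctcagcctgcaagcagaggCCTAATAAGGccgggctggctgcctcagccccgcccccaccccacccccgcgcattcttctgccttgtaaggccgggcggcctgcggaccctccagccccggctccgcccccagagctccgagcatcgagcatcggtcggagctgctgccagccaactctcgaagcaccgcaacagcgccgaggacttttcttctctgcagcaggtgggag
Filip1l: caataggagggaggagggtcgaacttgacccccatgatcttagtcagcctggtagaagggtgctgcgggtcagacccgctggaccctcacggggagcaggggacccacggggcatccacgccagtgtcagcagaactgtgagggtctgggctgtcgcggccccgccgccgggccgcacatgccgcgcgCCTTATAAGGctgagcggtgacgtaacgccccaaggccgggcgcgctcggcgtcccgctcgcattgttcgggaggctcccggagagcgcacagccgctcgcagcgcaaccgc
Filip1l, a filamin-interacting protein, was 1.5-fold higher at gd16, with signals of 1256, 1100 and 1294, against 782, 830 and 806 at gd14 (adjusted p = 0.0289).

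Among genes of insulin and IGF signalling, 2 of 19 rose and 1 fell, with a median of -0.02, near that of all genes. The shares called over all genes tested were 0.664% higher and 0.42% lower. Irs4 (an adaptor of the insulin and IGF1 receptors, on the X chromosome) had signals of 987, 1639 and 682 at gd16, against 202, 230 and 192 at gd14, a 4.70-fold rise (2.23 ± 0.27, adjusted p = 0.00147). The gd16 arrays were spread more widely than the gd14 arrays (SD of the log2 values 0.63 and 0.12) and did not overlap with them. Igf1 (insulin-like growth factor 1) had 9336, 7061 and 7371 at gd16, against 3637, 2991 and 4190 at gd14, a 2.20-fold rise (1.13 ± 0.19, adjusted p = 0.0145), and its 3 other probe sets gave 1.18, 1.15 and 0.79. Igfbp3 (a binding protein that carries IGFs) had 1991, 1564 and 1670 at gd16, against 4824, 5528 and 5112 at gd14, 2.95-fold lower (adjusted p = 0.0271). Igf2, Igf1r and Insr had log2 changes of 0.14, -0.18 and -0.02 and were not called. None of 15 imprinted growth genes was called, with a median of 0.10.

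Hmga2 (a chromatin protein of fetal growth whose RNA is a target of let-7 microRNAs) had signals of 7658, 5748 and 7131 at gd16, against 20977, 22485 and 14909 at gd14. The highest gd16 array was far below the lowest gd14 array, a 2.81-fold fall (-1.49 ± 0.18, adjusted p = 0.00147). It was the 1 called gene of 6 measured in the Hmga2, Lin28 and Igf2bp list, where 0.42% of all genes tested were called lower. All 6 lay below 0, with a median of -0.88, but members could pass the filter through their gd12 arrays alone. In the fit on the gd16 and gd14 arrays alone 4 members were measured. The list median ran from -1.08 to -0.43 over the alternatives. Lin28a, which blocks let-7 maturation, had 2.78, 26.0 and 39.3 at gd16, against 94.3, 50.7 and 77.6 at gd14 (adjusted p = 0.232). All 6 of these signals lay below the array medians. Of 50 cell division genes 0 were called, and their median log2 change was -0.01. Mki67, the Ki-67 antigen, had 7814, 11053 and 9797 at gd16, against 7793, 9367 and 8731 at gd14. Cdkn1a (p21, an inhibitor of cyclin-dependent kinases) was 2.10-fold lower, with 732, 797 and 756 at gd16, against 1625, 1834 and 1427 at gd14 (adjusted p = 0.0307), and its other probe set had a log2 change of -0.22.

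**Figure D3:**
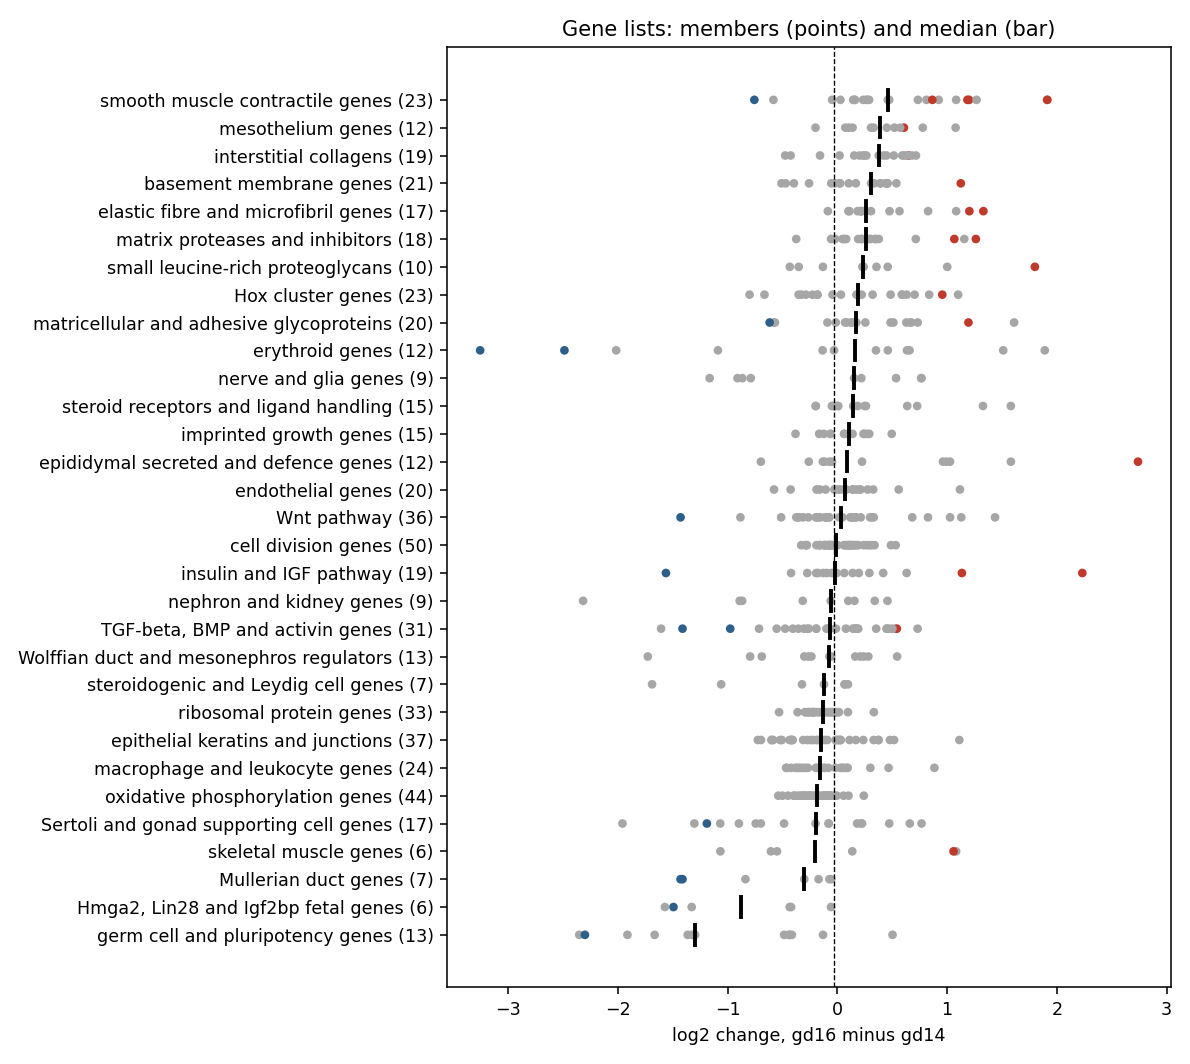
Log2 change of gd16 minus gd14 (horizontal axis) for each member of the lists with at least 5 measured genes (rows, number in brackets), red where called higher, blue where called lower and grey where not called. Black bars are list medians and the dashed line is the median of all genes (-0.03), and the smooth muscle list has the highest bar and the germ cell list the lowest.

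The duct epithelium was followed through its keratins and junctions. Of 37 keratin and junction genes 0 were called, with a median of -0.15, and Epcam, an epithelial adhesion molecule, had signals of 2642, 3954 and 2598 at gd16, against 3173, 3173 and 3450 at gd14. Outside that list Eppk1 (epiplakin, which binds keratin filaments) had 198, 185 and 175 at gd16, against 57.7, 24.1 and 12.5 at gd14, a 4.60-fold rise (adjusted p = 0.0321). Its gd14 arrays lay below the array medians, and the log2 change was 2.78 with 1 added and 1.42 with 64. Of 12 measured epididymal secreted and defence genes, 1 rose and none fell, where 0.664% of all genes tested were called higher. The 1 that rose was Lcn2. Lcn2 (lipocalin 2, which captures iron-binding siderophores) had 235, 497 and 177 at gd16, against 48.6, 8.1 and 37.6 at gd14. It had the largest rise of the called genes, 6.68-fold (2.74 ± 0.50, adjusted p = 0.02). The gd14 arrays lay below the array medians, as they also did for Rasd2, Angpt4 and Mkx, so the size of the fold depends on the added constant, and for Lcn2 the log2 change was 3.41 with 1 added and 1.87 with 64.

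Regulators of the duct and hormone genes gave few calls. None of 13 Wolffian duct and mesonephros regulators was called. Gfra1, a co-receptor for GDNF, had signals of 98.7, 44.0 and 112 at gd16, against 304, 333 and 271 at gd14 (adjusted p = 0.0692). None of 15 steroid receptor and ligand handling genes was called, with a median of 0.14. Esr1, the estrogen receptor alpha, had 7188, 8139 and 6410 at gd16, against 4770, 4169 and 5001 at gd14 (adjusted p = 0.336). Of 23 Hox cluster genes 1 rose, where 0.664% of all genes tested were called higher. Hoxd10 had 978, 1087 and 1091 at gd16, against 673, 515 and 439 at gd14 (1.94-fold, adjusted p = 0.0172). Adh1 (an alcohol dehydrogenase that also oxidises retinol) was 2.79-fold higher, with 6470, 6397 and 5826 at gd16, against 3180, 2627 and 1311 at gd14 (adjusted p = 0.0346).

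The remaining genes with the largest rises have various roles. Osr2 (an odd-skipped zinc finger factor of mesenchyme) had signals of 530, 611 and 737 at gd16, against 255, 144 and 159 at gd14, a 3.24-fold rise (adjusted p = 0.0159). Mkx (mohawk, a homeobox factor of tendon) was 2.78-fold higher (adjusted p = 0.0318) and Angpt4 (a ligand of the endothelial receptor Tie2) 3.95-fold higher (adjusted p = 0.0271). Ripor2 (an inhibitor of the GTPase RhoA) had 1196, 1138 and 884 at gd16, against 231, 312 and 273 at gd14, a 3.77-fold rise (adjusted p = 0.0172). Tent5c (a non-canonical poly(A) polymerase) was 2.94-fold higher (adjusted p = 0.0163) and Nrxn3 (neurexin 3, a cell adhesion receptor of nerve terminals) 2.88-fold higher (adjusted p = 0.0289). For Ripor2 the means of log2(signal + 16) at gd12, gd14 and gd16 were 9.91, 8.16 and 10.08. They were 11.39, 10.21 and 11.76 for Tent5c, and 7.64, 6.07 and 7.55 for Mkx. The gd12 means of Ripor2, Tent5c and Mkx thus lay near those at gd16, with gd14 below both. Rasd2 (a Ras-like GTPase) was called 4.44-fold higher on 1 probe set (adjusted p = 0.045), while its other probe set had a log2 change of 0.33 and was not called (adjusted p = 0.905).

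Signalling genes were among those that fell. Wif1 (a secreted inhibitor of Wnt proteins) had signals of 199, 157 and 221 at gd16, against 523, 471 and 638 at gd14, a 2.69-fold fall (adjusted p = 0.0496). It was the 1 called gene of 36 in the Wnt list, whose median was 0.03. In the list of 31 TGF-beta, BMP and activin genes, 1 rose and 2 fell, with a median of -0.07. The shares called over all genes tested were 0.664% higher and 0.42% lower. Amhr2 (the type 2 receptor of anti-Mullerian hormone) had 736, 913 and 965 at gd16, against 2541, 2652 and 1873 at gd14, 2.66-fold lower (adjusted p = 0.0208). Its other probe sets gave -1.68 and -1.26, and on a probe set not open to related sequences the call was lost (adjusted p = 0.198). Smad6 (an inhibitor of BMP signalling) was 1.97-fold lower (adjusted p = 0.0252), and Id4 (an inhibitor of basic helix-loop-helix factors) was 1.46-fold higher (adjusted p = 0.035).

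Vcam1 (a vascular and mesenchymal adhesion molecule) had signals of 293, 176 and 243 at gd16, against 642, 656 and 690 at gd14, a 2.73-fold fall (adjusted p = 0.012). Its other probe sets had smaller changes of -0.90 and -0.37, and with the mean of its probe sets it was not called. Runx1 (a transcription factor of blood formation that some mesenchyme also expresses) was 2.31-fold lower (adjusted p = 0.0288), and with the mean of its probe sets it was not called either. Ednrb (the endothelin B receptor) had 1644, 1109 and 1401 at gd16, against 3012, 2841 and 2761 at gd14 (2.09-fold lower, adjusted p = 0.0388). Ppp1r14c (an inhibitor of protein phosphatase 1) was 2.48-fold lower (adjusted p = 0.0066). Akr1c13 (an aldo-keto reductase), Lypd6b (a Ly6-domain protein), Ankrd63 (an ankyrin repeat protein) and Mm2pr were 5.01-fold, 2.81-fold, 5.87-fold and 3.54-fold lower. Akr1c13, Ankrd63, Mm2pr, Dppa4 and Dppa5a lay below the array median on every gd16 array, so their folds depend on the added constant.

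The largest fall was that of Hbb-y, the embryonic beta-like globin made by yolk sac red cells. Its signals were 4534, 3323 and 1908 at gd16, against 28811, 34835 and 25264 at gd14, a 9.54-fold fall (-3.25 ± 0.41, adjusted p = 0.00221). The other called erythroid gene was Hba-x, the embryonic alpha-like globin zeta, with 101, 5.7 and 90.7 at gd16, against 267, 546 and 284 at gd14 (5.6-fold lower, adjusted p = 0.044). All its gd16 arrays lay below the array medians, and the log2 change was -3.12 with 1 added and -1.77 with 64. The call was lost on the 6 arrays alone (adjusted p = 0.0505), with 1 added (0.111) and without gd16 replicate 9 and gd14 replicate 10 (0.109). Over the 12 measured erythroid genes the median was 0.16, with 6 above 0 and 6 below. Alas2, the haem synthesis enzyme of red cells, had 4462, 1553 and 897 at gd16, against 410, 503 and 554 at gd14, and the adult globin Hbb-b2 had 1469, 498 and 480 at gd16, against 182, 295 and 250 at gd14. Neither was called (adjusted p = 0.0692 and 0.0978), though their arrays did not overlap. Of the 12 erythroid genes 2 were called lower, where 0.42% of all genes tested were. The arrays did not overlap for 2 of the 12 with gd16 higher and for 4 with gd16 lower. Over all genes tested these shares were 9.28% and 12.3%. In the fit on the 6 arrays alone 7 erythroid genes were measured. In such bulk samples fewer cells of a type and less RNA per cell cannot be told apart.

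Genes of germ cells and pluripotent cells were followed as a list. Dppa5a, a marker of pluripotent and early germ cells, had signals of 115, 74.8 and 59.6 at gd16, against 378, 398 and 645 at gd14, a 4.92-fold fall (-2.30 ± 0.25, adjusted p = 0.000601). It was the 1 called gene of 13 in that list, where 0.42% of all genes tested were called lower. Of the 13, 12 lay below 0, with a median of -1.30, but members could pass the filter through their gd12 arrays alone. Of the 18 with a probe set, 1 to 2 per gd16 array lay at or above the array median. On the gd14 arrays this held for 5 to 8. In the fit on the 6 arrays alone 6 members were measured. The list median ran from -1.49 to -0.47 over the alternatives. Summed over all 18 members with a probe set, the signal was 1098 to 1525 at gd16, against 2233 to 2839 at gd14. Of the members that define germ cells, Ddx4 had 4.1, 18.0 and 87.5 at gd16, against 186, 141 and 280 at gd14 (adjusted p = 0.0766), and Dazl had 54.0, 65.6 and 103 at gd16, against 162, 205 and 240 at gd14 (adjusted p = 0.2). At gd12 the 3 arrays had 557 to 1718 for Ddx4 and 10013 to 13524 for Dppa5a, so gd14 already lay far below them. Dppa4, a chromatin protein of pluripotent cells, was 4.00-fold lower at gd16 than at gd14 (adjusted p = 0.0346). Rhox5, an X-linked homeobox gene, was 2.28-fold lower (adjusted p = 0.0388). It was the 1 called gene of 17 in the Sertoli and gonad supporting cell list. The median of that list was -0.20, and -0.60 without gd16 replicate 9 and gd14 replicate 10. Members of that list, too, could pass the filter through their gd12 arrays alone. In the fit on the 6 arrays alone 11 of them were measured, and the list median ran from -0.72 to -0.13 over the alternatives.

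Of the oxidative phosphorylation genes none of 44 was called, the median log2 change was -0.18, and 41 of the 44 lay below 0. Of 33 ribosomal protein genes none was called, the median was -0.13 and 29 lay below 0. Over all genes tested 44.7% had a change above 0. After quantile normalization the medians of these lists were -0.15 and -0.07, against -0.04 over all genes.

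Markers of other cell types were followed in 13 lists. Macrophage and leukocyte genes had a median of -0.15 over 24 genes and endothelial genes 0.07 over 20, with none called in either list. Nerve and glia genes (9 tested, median 0.15), nephron genes (9, -0.06) and adipocyte genes (4, -0.08) held no called gene, nor did the 1 adrenal cortex gene tested. The Mullerian duct list also holds Sp7, a factor best known from bone, and Pax8, Emx2 and Lhx1 of the Wolffian duct. In it 2 of 7 fell (Amhr2 and Wif1), and the median was -0.30, running from -0.84 to -0.26 over the alternatives. Over all genes tested 0.664% were called higher and 0.42% lower. In the skeletal muscle list 1 of 6 rose, Tnnt1, slow skeletal troponin T, with signals of 821, 1038 and 624 at gd16, against 414, 380 and 351 at gd14 (adjusted p = 0.0246). The mesothelium, the covering of the organ, had a list median of 0.39 over 12 genes, 11 of them above 0. Tcf21, a factor of mesothelial and mesenchymal cells, was the 1 called member (1.52-fold higher, adjusted p = 0.0145). Its other probe set had a log2 change of 0.03, and with the mean of its probe sets the gene was not called (adjusted p = 0.439). Summed over 13 mesothelial genes the signal was 21464 to 23286 at gd16, against 15282 to 15983 at gd14. Such a sum leans on its brightest members. Aldh1a2, the brightest, had 9810, 8965 and 9460 at gd16, against 5544, 5195 and 5705 at gd14, and Tcf21 was the next. Wt1, the 1 measured member below 0, had 1316, 1340 and 1723 at gd16, against 1558, 1705 and 1738 at gd14. The mesothelin gene Msln had 155, 84.5 and 156 at gd16, against 89.8, 41.9 and 35.4 at gd14 (adjusted p = 0.33). The mesothelial sum was higher at gd16 than at gd14, as were the sums of the smooth muscle and interstitial collagen lists. On gd16 replicates 7, 8 and 9 the mesothelial sum was 23286, 21464 and 22773, and the smooth muscle sum 70073, 74639 and 70542. The part of the mesothelium in the matrix and smooth muscle results was not tested.

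Steroidogenic genes were read array by array. Cyp17a1 (the enzyme that makes androgen precursors in Leydig cells) had signals of 23.3, 8.5 and 2211 on gd16 replicates 7, 8 and 9, against 949, 302 and 218 on gd14 replicates 10, 11 and 12. Cyp11a1 (the enzyme that starts steroid synthesis) had 8.3, 32.6 and 511 on the gd16 arrays, against 377, 27.2 and 80.1 on the gd14 arrays. Hsd3b1 had 7.9, 58.0 and 549 at gd16, against 407, 157 and 107 at gd14. In each case the highest array was gd16 replicate 9 and the next gd14 replicate 10, so the stages overlapped.

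Star, which moves cholesterol into mitochondria, had signals of 136, 140 and 598 at gd16, against 311, 227 and 222 at gd14. Nr5a1 (the factor SF-1 of gonad and adrenal) had 41.4, 39.5 and 141 at gd16, against 100, 60.5 and 94.1 at gd14. Of 14 listed steroidogenic genes 9 had a probe set. All 9 were higher on gd16 replicate 9 than the mean of its stage mates, by a median of 1.47 on the log2 scale, and all 9 were higher on gd14 replicate 10 than the mean of its stage mates, by a median of 0.46. Skeletal muscle genes had a similar median on gd14 replicate 10, 0.45, with 16 of 20 above the stage mates. On gd14 replicate 12 their median was -0.57, with 3 of 20 above, and 6 of the 20 passed the filter. The 9 signals summed to 13270 on gd16 replicate 9, against 7121 and 7334 on the other gd16 arrays. They summed to 10325 on gd14 replicate 10, against 7216 and 7629 on the other gd14 arrays. These sums lean on Fdx1, the brightest member, which had 5886, 5713 and 6744 at gd16, against 6439, 5110 and 5635 at gd14.

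Of the 7 steroidogenic genes tested 0 were called by limma, and 0 had an unadjusted p under 0.05. Their median log2 change was -0.12, and -0.64 without gd16 replicate 9 and gd14 replicate 10. For Cyp17a1 the log2 change was -1.69 ± 1.24 (adjusted p = 0.62) over all arrays. It was -3.74 ± 0.72 without gd16 replicate 9 (adjusted p = 0.0358), -1.08 ± 1.40 without gd14 replicate 10 (adjusted p = 0.863) and -3.14 ± 0.74 without both (adjusted p = 0.133). A single array thus decided whether this gene was called. For Star the change was -0.12 ± 0.43 over all arrays and -0.64 ± 0.33 without both, with an adjusted p of 0.94 and 0.614.

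Other gonad genes were read on the same arrays. On gd16 replicate 9, 17 of 20 Sertoli and supporting cell genes lay above the mean of the stage mates, by a median of 0.67, and on gd14 replicate 10 this held for 9 of 20. The Sertoli cell hormone gene Amh had signals of 38.4, 5.8 and 5.9 at gd16, against 14.1, 9.4 and 3.9 at gd14, and lay below the array median on all 6 arrays. Inha, inhibin alpha, which Leydig and Sertoli cells both make, had 463, 437 and 1062 at gd16, against 710, 434 and 477 at gd14. Of the adrenal cortex genes, Cyp21a1 had 81.2, 54.2 and 56.4 at gd16, against 43.7, 62.2 and 35.2 at gd14, and Cyp11b1 had 56.0, 34.7 and 195 at gd16, against 58.5, 4.3 and 37.8 at gd14. Whether steroidogenic cells of a neighbouring organ were in these samples was not tested.

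**Figure D4:**
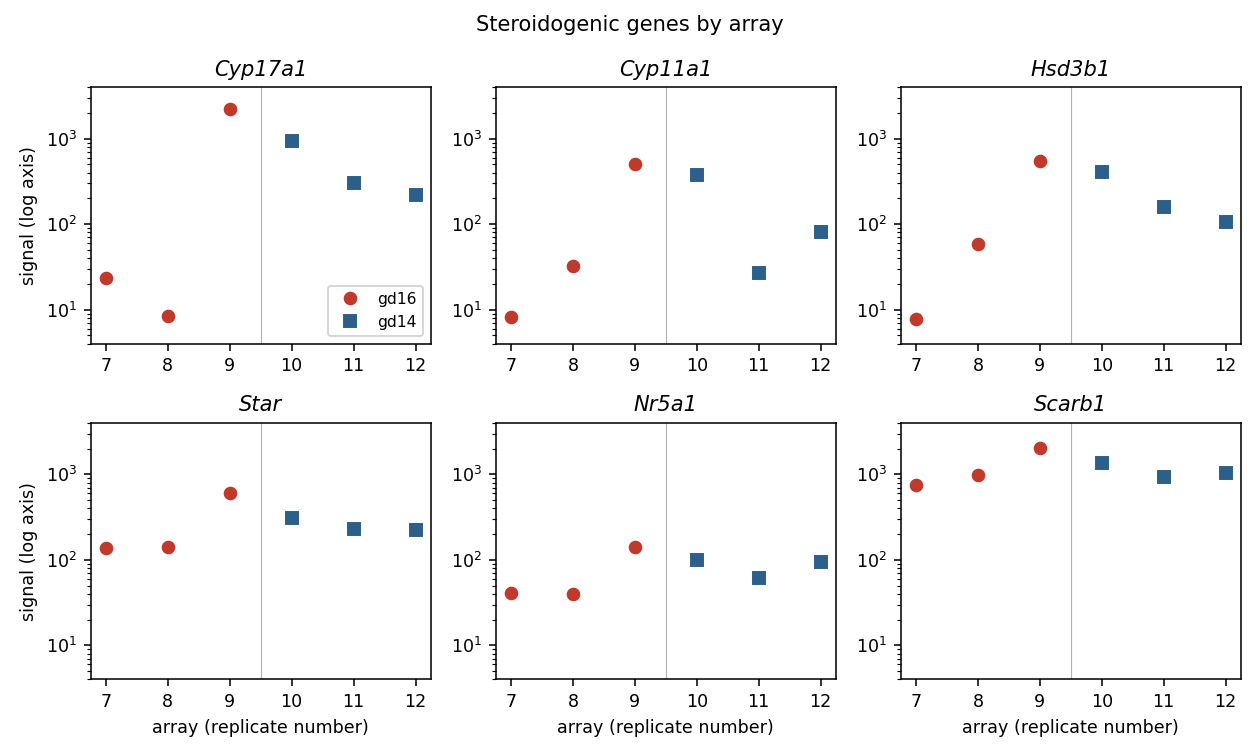
Signal (vertical axis, log scale) of 6 steroidogenic genes on gd16 arrays 7, 8 and 9 (red circles, left) and gd14 arrays 10, 11 and 12 (blue squares, right), 1 point per array. For each gene the highest point is gd16 replicate 9, and for Cyp17a1 it lies at 2211 while the other gd16 arrays lie at 23.3 and 8.5.

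Set beside the neighbouring intervals in the same fit, the interval held few calls. Between gd14 and gd12, 3570 genes were called (30%), and between gd18 and gd16, 183 (1.54%), of which 136 were higher at gd18 (1.14%). These counts share the gd14 or gd16 arrays with the comparison reported. To see whether gd16 left the course set by its neighbours, gd16 was tested against the midpoint of gd14 and gd18. By limma 0 of 11905 genes were called, 1052 had an unadjusted p under 0.05, and the lowest adjusted p was 0.0709, which several genes shared. Among these was Fbxo32, whose gd16 mean lay 0.80 log2 units above the midpoint. For Aspn the stage means of log2(signal + 16) were 4.41, 7.63, 9.43 and 11.08 at gd12, gd14, gd16 and gd18. For Fbxo32 they were 7.0, 9.35, 11.05 and 11.16, so its mean changed little after gd16. For Hmga2 they were 14.73, 14.23, 12.73 and 10.90, and for Hbb-y 15.22, 14.84, 11.59 and 5.91. Igfbp3 was highest at gd14, at 11.07, 12.33, 10.77 and 10.34, and Wif1 likewise, at 6.60, 9.12, 7.69 and 5.50.

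**Figure D5:**
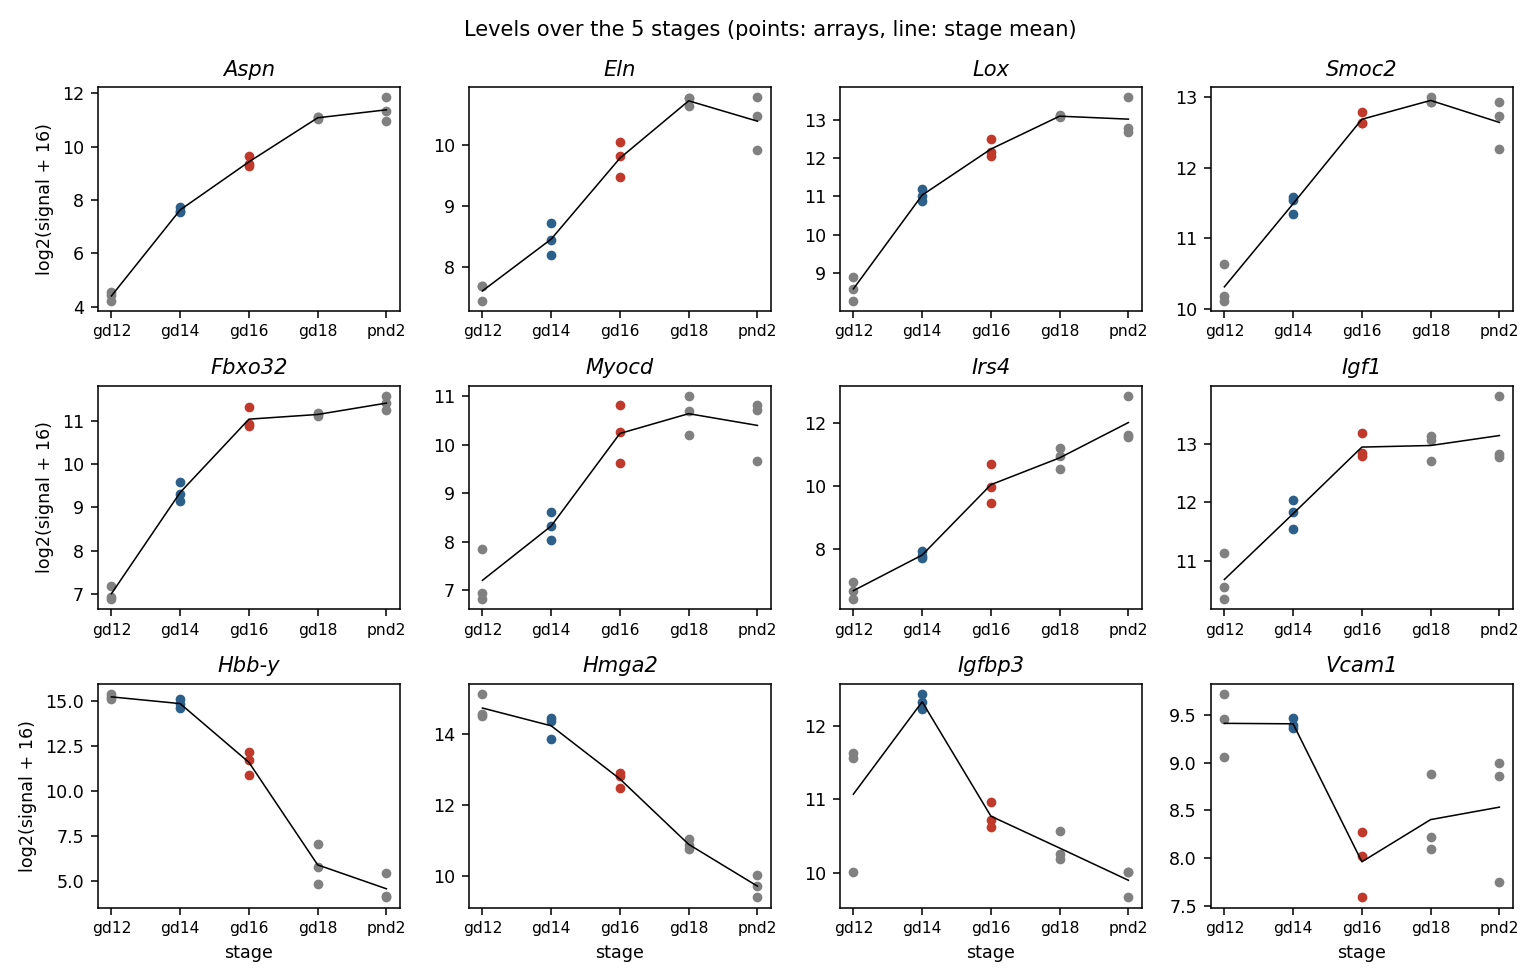
Log2(signal + 16) of 12 called genes (vertical axis) at gd12, gd14, gd16, gd18 and pnd2 (horizontal axis), with 1 point per array, gd14 in blue and gd16 in red, and a line through the stage means. The line of Aspn climbs up to gd18, that of Fbxo32 flattens after gd16, and that of Igfbp3 peaks at gd14.

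Single arrays weighed on the number of calls. Leaving out gd16 replicate 7, 8 or 9 left 47, 46 or 81 called genes, and leaving out gd14 replicate 10, 11 or 12 left 38, 20 or 36. Without gd12 replicate 13 there were 223. Of the 129 genes, 15 were called in all 12 fits that left out 1 array, and 114 lost the call in at least 1. The 12 of the 15 that rose were Irs4, Aspn, Fbxo32, Itih5, Mgp, Eln, Gabrb1, Lox, Smoc2, Plcb1, Lama2 and Cd34, and the 3 that fell were Hmga2, Dppa5a and Hbb-y. Among the named genes, Myocd kept its call in 9 of the 12 fits, Acta2 in 7, Igf1 in 9, Igfbp3 in 6, Lcn2 in 8, Pdlim3 in 6, Wif1, Hba-x, Rasd2, Mkx, Ednrb and Tgfb1i1 in 5, and Eppk1 and Id4 in 4. When the probe sets of each gene were averaged, 10 of the 54 named genes lost the call, namely Hba-x, Rasd2, Igfbp3, Vcam1, Runx1, Cdkn1a, Ednrb, Htra3, Tcf21 and Id4. None of the 54 named genes that were called changed direction in any of them.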

How the data were processed

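Per the submitters' processing notes the deposited values came from GCOS, the Affymetrix scanner software, and its version and algorithm were not given in the sources used here. Values in the deposited table are 1 linear intensity (signal) per probe set and array, and each array's trimmed mean of 500 shows a scaling by 1 factor. All 16 columns were mapped to samples by title. Of 45101 probe sets, 64 were controls, 34945 had 1 gene symbol in the platform annotation, 932 had several and 9160 were not listed. Identifiers of 34741 were found in the gene table (GRCm38.p6), and 0 symbols differed.

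Genes were represented by their brightest kept probe set over the 12 fetal arrays, and signals of different genes were not compared. The fit used limma 3.58.1 in R 4.3.3 (1 mean per stage, moderated variances with an intensity trend, two-sided tests, Benjamini-Hochberg adjustment over 11905 genes) and was tested on simulated data. Fold changes refer to log2(signal + 16), which understates changes of dim genes. No batch is given in the labels, no depth applies to arrays, and 3 animals per stage limit the precision. Probe sets of 1 gene sometimes disagree.

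The genes named are up to 18 called rises and 18 called falls with the largest log2 change, whose arrays did not overlap and whose mean in the higher stage reached the average array median, leaving out clone and model names, together with members of 33 gene lists. The comparison and the lists were chosen with earlier results of these data known. List members with several symbols on their probe set are not measured. Alternatives were other constants (1, 64), normalizations, filters, probe set choices, variance models, thresholds, sets of arrays and arrays left out.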

Additional observations from a re-analysis of the deposited data

How the results depend on the processing

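No paired analysis was possible because each sample came from a different animal with its own dam, and the labels pair no samples. The count of 129 genes was 292 with the 6 arrays alone, 13 with all 15 epididymis arrays (of which pnd2 replicate 3 had a Gapdh 3' to 5' signal ratio of 63.2, against 4.33 to 7.18 on the others), 59 with no intensity trend, 281 with array quality weights and 15 without both gd16 replicate 9 and gd14 replicate 10. It was 20 at an adjusted p under 0.01, 70 with at least 2-fold change and 21 when a change of more than 1.2-fold was tested. With 1 array left out it ran from 20 to 223. Other settings gave 100 to 163. For the midpoint test the count of 0 was 3 with no intensity trend and 23 with array quality weights, and 0 to 11 with 1 array left out. For gd14 against gd12 the count of 3570 was 1524 with all 15 arrays. For gd18 against gd16 the count of 183 was 40 with all 15 arrays, 113 with 1 added, 112 with no filter, 95 with no intensity trend, 33 without both doubted arrays, and 38 to 286 with 1 array left out. None of the 54 named called genes changed direction, but some list medians crossed 0, among them those of the skeletal muscle list (-0.41 to 0.60) and the steroidogenic list (-0.79 to 0.12). The median change over all genes was -0.03, -0.04 after quantile normalization and -0.06 after median centring. Arrays per stage, and for dim genes the signal over background, limit these results, and the causes of the differences between settings were not tested.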

Other observations

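Further called genes outside the lists and the naming rule are given as values, chosen after their values were seen. Gas6, a ligand of the TAM receptor kinases, had signals of 2345, 2297 and 2275 at gd16, against 1166, 798 and 966 at gd14 (2.37-fold higher, adjusted p = 0.00946 by limma). Agtr2, the type 2 angiotensin receptor, had 11220, 9771 and 11370 at gd16, against 7184, 7294 and 6877 at gd14 (1.51-fold higher, adjusted p = 0.0208). Maob, a monoamine oxidase of mitochondria, was 2.54-fold higher (adjusted p = 0.00798), and Cd34, a surface glycoprotein of vessels and some mesenchyme, was 1.97-fold higher (adjusted p = 0.00591). The caveolar genes Cav1 and Cavin2 were 1.48-fold and 1.64-fold higher. Cdh2, which encodes N-cadherin, had 1470, 1338 and 1347 at gd16, against 2269, 2709 and 2679 at gd14 (1.83-fold lower, adjusted p = 0.0159). The transcription factor genes Sox11 and Snai2 were 1.72-fold and 1.43-fold lower, and Lifr, the receptor of leukaemia inhibitory factor, was 1.45-fold lower.

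Cdkn2c, an inhibitor of cyclin-dependent kinases 4 and 6, had signals of 639, 668 and 581 at gd16, against 302, 285 and 395 at gd14 (1.89-fold higher, adjusted p = 0.0288). Cxxc4 was 2.47-fold higher (adjusted p = 0.0145) and the related gene Cxxc5 1.63-fold lower (adjusted p = 0.0289). With every kept probe set as a unit, 163 of 25152 were called, 103 higher and 60 lower, and 21 of the called had no single gene symbol.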
